A study of Homo sapiens with 10 samples.

Results

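This account concerns the deep, non-cycling cells of doxorubicin-treated (DOX) and untreated HCT-116 cultures. HCT-116 is an established human colorectal carcinoma line with functional p53, and doxorubicin is an anthracycline that intercalates into DNA and traps topoisomerase II, which leaves double-strand breaks. Cells were given 200 nM DOX for 24 h, washed and left in drug-free medium for 6 d. Droplet 3′ single-cell RNA sequencing was then done on 2 DOX libraries and 2 untreated libraries of the same wild-type line. Captured mRNAs were tagged with a random barcode of their own, the unique molecular identifier (UMI), and distinct UMIs of a gene were counted in every cell barcode. Neither the labels nor the methods say that the libraries of a condition came from separate cultures, so the p-values measure the spread between these libraries, which may be technical. A barcode was called deep when it held from 20000 to under 150000 UMIs, fewer than 12000 genes and less than 8% of UMIs from mitochondrially encoded (MT-) genes. The non-cycling cells were then selected on measured values, as the deep cells in which MKI67 and TOP2A together had at most 3 UMIs. This left 799 non-cycling cells of 7465 deep cells and of 23229 barcodes in all. The comparison asks how arrested DOX cells differ from untreated cells that are also outside the cycle, in place of the mostly dividing culture.

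As background, p53 answers DNA breaks by inducing CDKN1A (p21), an inhibitor of cyclin-dependent kinases that keeps the RB family unphosphorylated and E2F target genes silent. When the arrest becomes permanent the state is called senescence, and it often comes with loss of lamin B1, enlarged lysosomes and secreted factors known as the senescence-associated secretory phenotype (SASP). DNA damage can also switch on interferon-stimulated genes. These are driven by ISGF3, a transcription factor complex that holds STAT2 and IRF9, and without tyrosine phosphorylation by U-ISGF3, which maintains a smaller set of antiviral genes. The proteins of the rule, Ki-67 and topoisomerase II alpha, are made from S phase to mitosis.

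The non-cycling class held 396 of 1259 and 245 of 962 deep cells in DOX libraries 1 and 2, against 112 of 3320 and 46 of 1924 in untreated libraries 1 and 2. These shares were 31.5% (exact binomial 95% interval 28.9 to 34.1) and 25.5% (22.7 to 28.3) in DOX, and 3.37% (2.79 to 4.05) and 2.39% (1.76 to 3.18) in untreated cultures. The intervals cover counting error only. The mean share was 28.5% ± 4.23 in DOX and 2.88% ± 0.695 in untreated cultures (SD, n = 2 each). An exact two-sided permutation test of the libraries gave p = 0.333, the smallest value that 2 against 2 allows. When each cell was thinned to 20000 UMIs and the class was redrawn as cells without any UMI of the 2 genes, the shares were 27.0% and 23.2% in DOX and 2.02% and 1.77% in untreated cultures.

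The rule fixes the level of MKI67 and TOP2A, which is therefore a description. MKI67 had 4.82 and 4.49 CPM (UMIs of a gene per 1000000 UMIs summed over the cells) in DOX and 17.6 and 13.8 CPM in untreated non-cycling cells, and 259, 260, 257 and 292 CPM in the cycling cells of DOX 1, DOX 2, untreated 1 and untreated 2. Within the limit the conditions filled the class differently. In DOX, 237 and 149 of the cells had no UMI of either gene and 25 and 19 had exactly 3, while 28 and 17 of the untreated cells had none and 37 and 11 had 3. Just outside the limit, at 4 UMIs, stood 21 and 13 DOX cells and 32 and 16 untreated cells. The median was 0 UMIs in both DOX libraries and 2 UMIs in both untreated libraries.

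**Figure D1:**
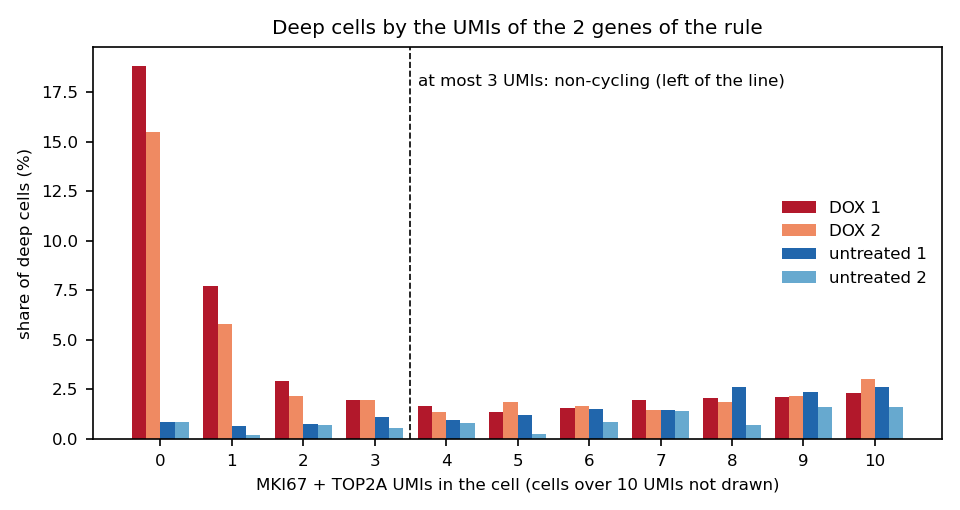
Share of deep cells (%) in each library by the number of MKI67 plus TOP2A UMIs in the cell, for 0 to 10 UMIs. The dashed line marks the limit of 3 UMIs. The DOX bars peak at 0 UMIs, where the 2 DOX libraries held 237 and 149 cells, while the untreated bars stay low at every count up to 3.

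The untreated class was smaller, shallower and more mixed in phase calls than the DOX class. Its cells had medians of 46795.5 and 55892 UMIs, against 74145.5 and 78513 UMIs in the DOX non-cycling cells. Phase scores put 92.4% and 92.2% of the DOX class in G1 and 5.81% and 4.90% in S phase, but 59.8% and 65.2% of the untreated class in G1 and 32.1% and 28.3% in S phase. The label "non-cycling" thus describes the DOX cells better than the untreated ones. For this reason counts of gene lists and selected genes are given again for cells with 0 UMIs of MKI67 and TOP2A or for cells of the class that were also called G1. Of 134 named genes called in the whole class, 41 kept their call with 0 UMIs, where far fewer untreated cells were left, and 113 kept it in G1-called cells. The MT- share had medians of 4.93% and 5.2% in DOX and 5.65% and 5.44% in untreated cells. Cells under 2% MT- UMIs made up 18.2% and 14.3% of the DOX class and 6.25% and 4.35% of the untreated class. No barcode occurred in the non-cycling class of more than 1 library. Whole DOX libraries had 8000 barcodes each, set by the authors, with medians of 1533 and 1295 UMIs, so most DOX barcodes lie below the depth used here. Of 14 marker genes of fibroblasts, endothelium and blood cells in the files, 3 had enough UMIs to test and none of these passed. Their summed level was 13.2 and 16.6 CPM in DOX and 8.88 and 11.6 CPM in untreated non-cycling cells.

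UMIs of the class were summed per library (30286718 and 19826772 in DOX, 5966781 and 2762473 in untreated) and tested by edgeR's quasi-likelihood method with Benjamini-Hochberg adjustment over all genes. Of 15619 genes tested, 1893 (12.1%) were higher and 2147 (13.7%) lower in DOX at an adjusted p under 0.05, which together make 25.9%, and 5962 had an unadjusted p under 0.05. The median log2 fold change over all genes was 0.05, and 0.18 when UMI totals alone set the scale, so changes are read relative to these. All log2 fold changes below are DOX over untreated on the TMM scale, with their standard error (SE), while CPM are plain shares of the summed UMIs. Counts of list members in the whole class are read beside these 12.1% and 13.7%. All such counts depend on the untreated cells. With 0 UMIs of the 2 genes, which left 28 and 17 untreated cells, 93 genes were higher and 70 lower. These kept 4.91% of the higher and 3.21% of the lower calls. List counts under this limit are therefore read beside these low totals and not beside 12.1% and 13.7%. Without untreated library 1, 541 were higher and 871 lower.

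The p53 program was higher in DOX non-cycling cells, although untreated non-cycling cells already expressed much of it. CDKN1A (chr6:36644237-36655114, GRCh37) had 550 and 472 CPM in DOX and 150 and 236 CPM in untreated non-cycling cells. In cycling cells it had 142 and 103 CPM in DOX and 23.7 and 24.7 CPM in untreated cultures. The order of the levels was thus DOX non-cycling, untreated non-cycling, DOX cycling and untreated cycling, with no overlap between neighbours in that order. The log2 fold change was 1.31 (SE 0.177, edgeR adjusted p = 0.0010) in non-cycling cells and 2.25 in cycling cells. In the model over both classes the DOX effect was smaller in non-cycling cells by a log2 difference of -0.89 (edgeR adjusted p = 0.0029). In cells with no UMI of the 2 genes the CDKN1A fold change was 0.93 and missed the threshold (edgeR adjusted p = 0.083).

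GDF15, a secreted stress cytokine and p53 target, showed this even more clearly. It had 587 and 534 CPM in DOX and 321 and 373 CPM in untreated non-cycling cells, against 175 and 128 CPM in DOX and 35.0 and 27.6 CPM in untreated cycling cells. Untreated non-cycling cells therefore stood above DOX cycling cells. The log2 fold change was 0.57 (SE 0.109, edgeR adjusted p = 0.0050) in non-cycling cells and 2.18 in cycling cells, a difference of -1.58 (edgeR adjusted p = 6.7e-05). With 0 UMIs of MKI67 and TOP2A the GDF15 value was -0.05, and in G1-called cells it was 0.24, neither past the threshold.

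Of 15 p53 targets for arrest and feedback, 9 were higher, none lower and 6 did not pass, against 12.1% and 13.7% over all genes. The list median was 0.48, and it was 0.32 in cycling cells. TP53INP1, which promotes p53 activity and autophagy, rose by a log2 fold change of 1.65 (SE 0.177), with 53.4 and 42.3 CPM in DOX and 13.9 and 14.1 CPM in untreated cells. ZMAT3, an RNA-binding target of p53, rose by 1.13 to 97.1 and 89.7 CPM in DOX, against 32.5 and 48.9 CPM in untreated cells. SFN, the 14-3-3 sigma protein that sequesters mitotic kinases, had 807 and 761 CPM in DOX and 468 and 476 CPM in untreated cells, a rise of 0.61. SFN lost its rise in cells of 30000 to under 70000 UMIs, where the value was near 0. Under the limit of 0 UMIs, 1 of the 15 targets was higher and the list median was 0.11. Without untreated library 1 fewer targets were higher, as were fewer of all genes.

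Targets of p53 in death, survival, repair and metabolism were also measured. Among 14 targets linked to death and survival, 4 were higher and 1 lower, against 12.1% and 13.7% of all genes, with a median of 0.32. TP53I3, an oxidoreductase, rose by 1.26 to 68.9 and 71.4 CPM in DOX, against 23.0 and 32.6 CPM in untreated cells. BBC3 (PUMA), a BH3-only activator of apoptosis, rose by 0.84, and APAF1, the scaffold of the apoptosome, rose by 0.94. AEN, a nuclease, rose by 0.55. Among 15 targets for repair and metabolism, 4 were higher and none lower, set beside the same shares, with a median of 0.24. The higher ones were DRAM1 (0.98), which acts in lysosomal autophagy, FUCA1 (0.79), a lysosomal fucosidase, RRM2B (0.59), a ribonucleotide reductase subunit, and SESN1 (0.49), an mTORC1 inhibitor. Of 14 BCL2 family members, 3 were higher, against 12.1% of all genes. They were BBC3, BIK (0.70), another BH3-only protein, and BCL2L1 (0.42), the inhibitor of apoptosis BCL-XL. None of the family fell, and HRK had 10.6 and 12.6 CPM in DOX and 3.52 and 8.69 CPM in untreated cells without passing. No gene of these 3 lists passed with 0 UMIs of MKI67 and TOP2A, where the medians of the death and repair lists were 0.03 and -0.09. In G1-called cells AEN, RRM2B, SESN1 and BCL2L1 did not pass.

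**Figure D2:**
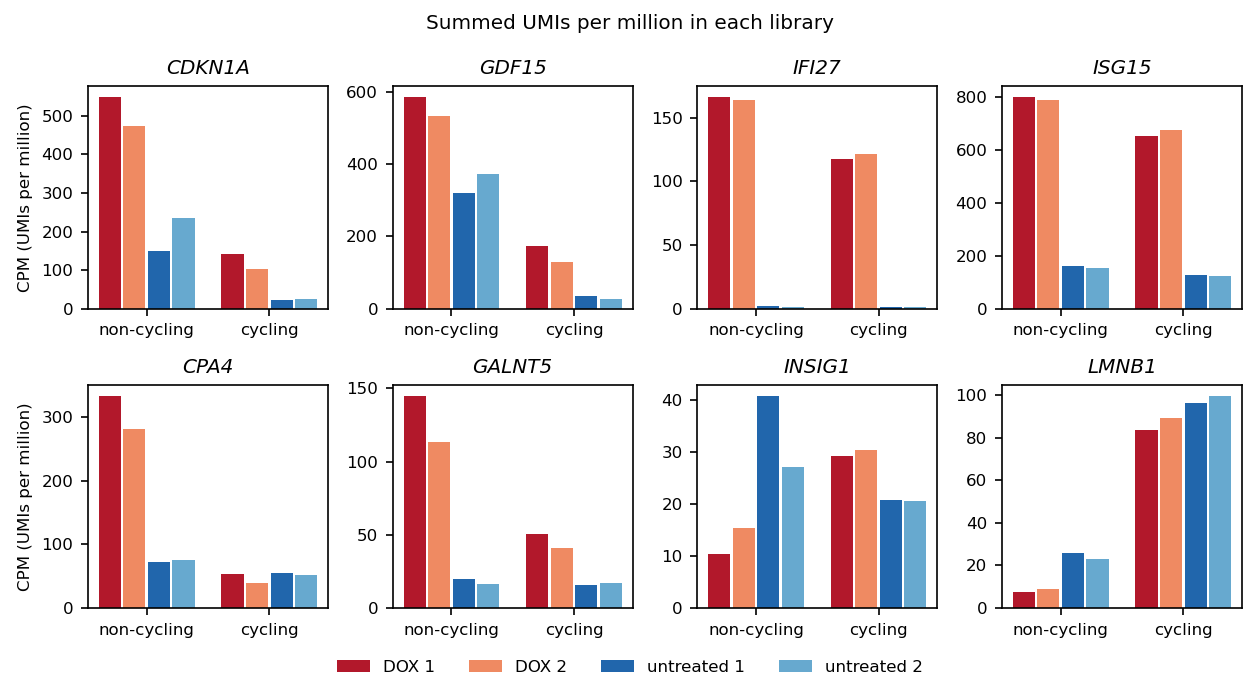
Level (CPM) of 8 genes in the summed non-cycling and cycling cells of each library, with 1 bar per library and no error bars. CDKN1A and GDF15 are high in untreated non-cycling cells too, IFI27 and ISG15 are high in DOX cells of both classes, and CPA4 and GALNT5 peak in DOX non-cycling cells.

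Interferon-stimulated genes were among the largest rises in non-cycling cells, and most of them were not shown to respond differently in cycling cells. Of the 29 genes listed as induced by U-ISGF3, 24 could be tested, 22 rose, none fell and 2 (MX1 and TMEM140) did not pass. The filter on low counts asks for enough UMIs in any 2 libraries. Members without an untreated UMI (2 of the 24) were thus tested through the DOX libraries alone. Their results are a description, and 70 of all 15619 genes were of this kind. The list median was 2.48, or 2.30 with the 2 genes that had no untreated UMI set at their lower bound, and 2.86 in cycling cells. Summed over the list, DOX non-cycling cells had 1534 and 1511 CPM and untreated ones 281 and 287 CPM, while cycling cells had 1312 and 1326 CPM in DOX and 252 and 251 CPM in untreated cultures. For the difference between the classes, 27 members were tested, none was higher and 2 were lower in non-cycling cells, against 3.55% and 4.69% of all 19661 genes. The median difference was -0.02. Without untreated library 1 fewer members rose, as did fewer of all genes. The list came from the study and its response in these cultures was known, so its direction is no independent evidence.

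STAT2 and IRF9, components of the complex, were higher in the DOX class. STAT2 had 19.2 and 16.5 CPM in DOX and 9.55 and 6.88 CPM in untreated cells (0.93). IRF9, the DNA-binding adaptor of the complex, had 3.04 and 4.64 CPM in DOX and 1.01 and 1.09 CPM in untreated cells (1.74, SE 0.464). STAT3, a factor that answers mostly to other cytokines, rose by 0.60. Of 11 ISGF3 and JAK/STAT genes tested, 6 rose and none fell, with a median of 0.60. In cells with 0 UMIs of MKI67 and TOP2A, 1 of the 11 was higher, and neither STAT2 (0.86, edgeR adjusted p = 0.15) nor IRF9 (0.97, edgeR adjusted p = 0.43) passed. IRF9 also missed the threshold in G1-called cells (1.51, edgeR adjusted p = 0.080).

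Several of these genes were close to silent in untreated non-cycling cells, while others, such as ISG15 and DDX58, were already expressed there. IFI27 (chr14:94571182-94583032, GRCh37), a mitochondrial interferon-induced protein, had 167 and 164 CPM in DOX and 2.35 and 1.09 CPM in untreated non-cycling cells (6.28, SE 0.205, edgeR adjusted p = 1.4e-06). IFI6, an inhibitor of viral replication at the endoplasmic reticulum, had 493 and 515 CPM in DOX and 9.05 and 17.0 CPM in untreated cells (5.27). IFIT1, which binds RNA lacking cap methylation, had 47.6 and 46.3 CPM in DOX and 0.838 and 1.09 CPM in untreated cells (5.53). ISG15, a ubiquitin-like modifier, had 803 and 789 CPM in DOX and 161 and 156 CPM in untreated cells (2.2). DDX58, the RNA sensor RIG-I, had 67.6 and 70.4 CPM in DOX and 14.6 and 14.1 CPM in untreated cells (2.13). BST2 (tetherin), which holds virions at the membrane, had 40.9 and 32.4 CPM in DOX and 4.53 and 1.45 CPM in untreated cells (3.26). OAS1, which makes the 2′-5′ oligoadenylates that activate RNase L, had 339 and 211 UMIs in DOX and 1 UMI in all untreated non-cycling cells, a ratio with a counting interval of 17.1 to 3791. IFIT2 had 516 and 359 UMIs in DOX and 3 in untreated cells, with an interval of 17.3 to 247. IFI27, IFI6 and ISG15 kept values of 6.06, 5.09 and 2.14 in cells with no UMI of the 2 genes. BST2 was at 2.21 there and narrowly missed the threshold (edgeR adjusted p = 0.052).

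The wider response covered 32 other interferon-stimulated genes, of which 29 rose, none fell and 3 (CMPK2, IFIT5 and NMI) did not pass. The median was 1.13, and 1.31 in cycling cells. PARP9, a partner of DTX3L in ubiquitin signalling, rose by 2.59 to 40.8 and 35.2 CPM in DOX, against 5.36 and 6.52 CPM in untreated cells. IFITM3, which blocks entry of viruses, rose by 1.32 to 593 and 602 CPM in DOX, against 206 and 235 CPM in untreated cells. HSH2D, an adaptor protein induced by type I interferon, had 33.4 and 29.4 CPM in DOX and 14.1 and 11.6 CPM in untreated non-cycling cells (1.13, SE 0.165). In cycling cells HSH2D had 30.9 and 33.2 CPM in DOX and 7.77 and 9.02 CPM in untreated cultures, and its DOX effect was smaller in non-cycling cells (difference -0.73, edgeR adjusted p = 0.048). Of 19 genes of class I antigen presentation, 11 rose and 2 fell, with a median of 0.47. HLA-B, a class I heavy chain, had 353 and 349 CPM in DOX and 163 and 162 CPM in untreated cells (0.98). PSMB9, an immunoproteasome subunit, rose by 1.92 and TAP1, the peptide transporter, by 1.06. CALR, a chaperone of the peptide-loading complex, fell by 0.53 on the log2 scale, with 327 and 328 CPM in DOX and 451 and 415 CPM in untreated cells. Among cells with 0 UMIs of MKI67 and TOP2A, 10 of 30 other interferon-stimulated genes and 1 of 19 class I genes were higher and none lower. Over all genes just 93 were higher and 70 lower under that limit.

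Many promoters of the interferon-stimulated genes above share a sequence. The lists were made of genes known to respond to interferon, so its presence is no independent evidence. ISGF3 binds the interferon-stimulated response element (ISRE), searched here as GAAA, 2 bases of any kind and GAAA again, on both strands in RefSeq promoters (GRCh38.p14), from 250 bases before to 50 bases after the start. The motif was in 17 of the 22 U-ISGF3-induced genes with a promoter in the table (77.3%), in 14 of 27 other interferon-stimulated genes (51.9%), in none of 11 ISGF3 and JAK/STAT genes, and in 3.57% of all 35116 promoters. Some genes hold more than 1 match. A site for each of 6 genes with the responses given above is shown with the motif in capitals, read along the gene's strand with 10 flanking bases on either side.
ISG15: tcgggaaaggGAAACCGAAActgaagccaa
IFIT1: cactttccccTTTCGGTTTCcctaggtttc
IFI27: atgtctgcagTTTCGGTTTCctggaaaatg
IFI6: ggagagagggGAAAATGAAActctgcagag
BST2: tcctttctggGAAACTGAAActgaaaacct
IFITM3: aaactgttgaGAAACCGAAActactgggga
They lie at chr1:1013380-1013409 (ISG15, plus strand), chr10:89392510-89392539 (IFIT1, plus), chr14:94110618-94110647 (IFI27, plus), chr1:27672329-27672358 (IFI6, minus), chr19:17405741-17405770 (BST2, minus) and chr11:320876-320905 (IFITM3, minus). The capitals begin 107, 103, 108, 156, 130 and 35 bases before the start of these genes. A match is a description of the letters and not a bound site.

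Within the DOX class the response varied from cell to cell. After every cell was thinned to 20000 UMIs, DOX non-cycling cells had medians of 20 and 19 UMIs over the U-ISGF3 list, with quartiles of 11 to 33 in both libraries. Untreated non-cycling cells had medians of 5 and 5 UMIs, with upper quartiles of 7 and 7. DOX cycling cells had medians of 22 and 22 UMIs and untreated cycling cells 5 and 5. Over the 15 p53 arrest genes, by contrast, the medians were 49 and 45 UMIs in DOX non-cycling cells, 19 and 28.5 in untreated non-cycling cells, 16 and 15 in DOX cycling cells and 12 and 12 in untreated cycling cells. Medians of the p53 list thus differed between the classes as well as the conditions, and those of the U-ISGF3 list mainly between the conditions. Single cells overlapped. For the p53 list, quartiles were 12 to 35 UMIs in non-cycling cells of untreated 1 and 12 to 24.5 in cycling cells of DOX 1.

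For single genes, CDKN1A had medians of 6 and 5 UMIs per thinned cell in DOX and 1 and 2 in untreated non-cycling cells. GDF15 likewise had 6 and 5 in DOX and 1 and 2 in untreated cells, but its means of 11 and 9.53 in DOX and 4.68 and 6.48 in untreated cells lay closer together. ISG15 had medians of 9 and 9 in DOX and 3 and 2 in untreated cells. IFI27 averaged 3.19 and 2.87 UMIs in DOX with a median of 1 and an upper quartile of 3 in both libraries, and 0.0446 and 0.0435 in untreated cells. Free RNA in the droplets was not removed, and its part in these low values was not tested.

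**Figure D3:**
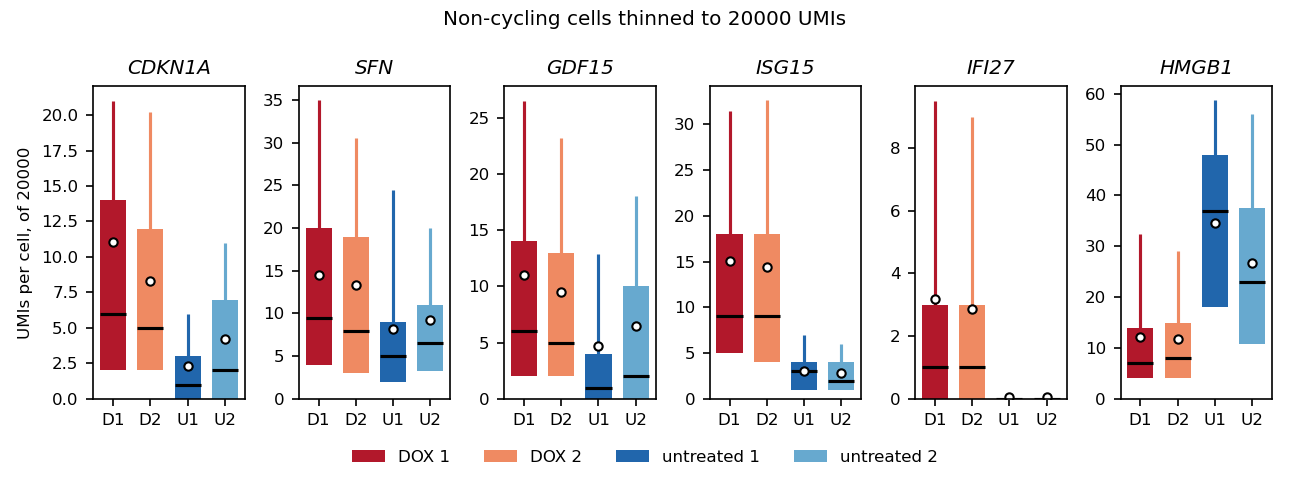
UMIs per cell of 6 genes in non-cycling cells thinned to 20000 UMIs each, by library (D1 and D2 DOX, U1 and U2 untreated, with 396, 245, 112 and 46 cells). Boxes span the quartiles, black lines are medians, white points means, and whiskers reach the 90th percentile. The ISG15 medians are 9 and 9 UMIs in DOX and 3 and 2 in untreated cells, and the GDF15 boxes overlap between conditions. HMGB1 medians are lower in DOX.

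Secreted factors and NF-kB genes gave a mixed picture. Of 21 SASP genes tested, 5 rose and 1 fell, against 12.1% and 13.7% of all genes, with a median of 0.31. MMP7, a matrix metalloproteinase, rose by 3.37 to 7.03 and 8.98 CPM in DOX, against 0.503 and 1.09 CPM in untreated cells. IGFBP6, which binds insulin-like growth factor 2, had 260 and 280 CPM in DOX and 84.3 and 139 CPM in untreated cells (1.19). IGFBP3 had 142 and 152 UMIs in DOX and none in the untreated class, which is at least 17.1-fold higher against a floor of 3 UMIs over both untreated libraries. It passed the filter on low counts through the DOX libraries alone, so its rise is a description. EREG, a ligand of the EGF receptor, fell by 0.66 on the log2 scale, to 315 and 310 CPM in DOX, against 462 and 443 CPM in untreated cells. EREG had 523 and 505 CPM in DOX and 432 and 454 CPM in untreated cycling cells, and the DOX effect differed between the classes (-0.77, edgeR adjusted p = 1.4e-04). With 0 UMIs of MKI67 and TOP2A, MMP7 (4.66) and IGFBP6 (0.93) still passed. IGFBP3 (edgeR adjusted p = 0.072) and EREG (-0.68, edgeR adjusted p = 0.12) did not. All of these genes passed in G1-called cells. The SASP median was near 0 in cells of 30000 to under 70000 UMIs.

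Of 15 NF-kB factors and feedback genes, 7 rose and 1 fell, against 12.1% and 13.7% of all genes, with a median of 0.58. BIRC3, a ubiquitin ligase of the TNF receptor complex, rose by 2.66 to 23.3 and 31.4 CPM in DOX, against 3.69 and 4.34 CPM in untreated cells, and kept 2.73 with 0 UMIs of the 2 genes. TNFAIP3 (A20), a feedback inhibitor, rose by 2.33 on few UMIs. RELB, a subunit of the non-canonical pathway, rose by 0.98 to 36.1 and 48.2 CPM in DOX, against 18.6 and 20.6 CPM in untreated cells. IER3, an early response gene, fell by 0.84 on the log2 scale, with 300.1 and 324 CPM in DOX and 396 and 639 CPM in untreated cells. Just 1 of the 15 was higher with 0 UMIs of the 2 genes, and none was lower.

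Genes of the cell cycle follow MKI67 and TOP2A, so their lower level in DOX is a description of how the class was filled. All 41 S phase genes in the files were lower in DOX non-cycling cells, with a median of -1.54, and 41 of 53 G2/M genes, with a median of -1.31. Summed S phase levels were 766 and 807 CPM in DOX and 2069 and 1741 CPM in untreated non-cycling cells, and 3542 to 4179 CPM over the 4 libraries of cycling cells. With 0 UMIs of the 2 genes, 1 S phase gene and 4 G2/M genes passed, and the medians were -0.89 and -0.63. RRM2, a ribonucleotide reductase subunit, had 9.01 and 8.73 CPM in DOX and 69.9 and 47.8 CPM in untreated cells. PCNA, the sliding clamp, had 68.7 and 71.1 CPM in DOX and 139 and 113 CPM in untreated cells, but did not pass with 0 UMIs (-0.29) or in G1-called cells (-0.43). CDC20, an activator of the anaphase-promoting complex, had 23.2 and 21.2 CPM in DOX and 147 and 105 CPM in untreated cells. BIRC5 (survivin) had 13.8 and 14.1 CPM in DOX and 79.4 and 63.0 CPM in untreated cells. ANAPC1, a subunit of the same complex, did not pass at 39.6 and 38.9 CPM in DOX and 39.6 and 44.5 CPM in untreated cells. The other falls of 20 CPM or more that were largest by the naming rule were PBK, ZWINT, GINS2, CCNB2, MAD2L1, CCNB1 and HMGB2, all cell cycle genes or, for HMGB2, a chromatin protein of dividing cells.

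Cell cycle promoters carried other motifs. E2F sites, searched as TTTCCCGC or TTTGGCGC on both strands, were in 13 of 31 S phase promoters in the table (41.9%), in 2 of 43 G2/M promoters (4.65%) and in 2.27% of all promoters. The cell cycle homology region (CHR) bound by the MuvB core, searched as TTTGAA on both strands, was in 29 of 43 G2/M promoters (67.4%), in 2 of 31 S phase promoters (6.45%) and in 15.2% of all promoters. Matches of different motifs were counted separately and may overlap. Examples from the 2 sets are shown with the motif in capitals, PCNA and GINS2 for E2F and CCNB2 and CDC20 for CHR.
PCNA: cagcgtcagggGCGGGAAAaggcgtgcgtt
GINS2: ctctcgccgtgGCGGGAAAacggcggccgc
CCNB2: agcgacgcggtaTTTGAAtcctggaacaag
CDC20: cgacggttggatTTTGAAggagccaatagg
These lie at chr20:5126663-5126692 (PCNA, minus strand), chr16:85688967-85688996 (GINS2, minus), chr15:59105105-59105134 (CCNB2, plus) and chr1:43358904-43358933 (CDC20, plus) of GRCh38.p14. GINS2 had 14.0 and 13.3 CPM in DOX and 69.0 and 46.0 CPM in untreated cells, and CCNB2 had 8.49 and 9.58 CPM in DOX and 40.7 and 35.5 CPM in untreated cells.

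Among 12 G1 cyclins, kinases and E2F factors, 6 were lower and 1 higher, with a median of -0.67. E2F1 had 3.6 and 4.03 CPM in DOX and 14.9 and 8.69 CPM in untreated cells, and its value of -0.69 in G1-called cells did not pass. CDK4, the kinase of the early G1 phase, had 102 and 96.1 CPM in DOX and 151 and 142 CPM in untreated cells (-0.70). CCNE2 (cyclin E2) had 3.6 and 3.98 CPM in DOX and 15.1 and 7.24 CPM in untreated cells, but in G1-called cells its value was 0.28, of the opposite sign. The list median was -0.06 among G1-called cells, where 1 gene was lower, and with 0 UMIs of MKI67 and TOP2A none passed. Of 10 CDK inhibitors and pocket proteins, 2 rose, CDKN1A and CDKN2B (p15, 0.73), and 2 fell, CDKN2A (p16 and p14ARF) and RBL1 (p107). CDKN2B and RBL1 passed neither with 0 UMIs (0.21 and -0.89) nor in G1-called cells (0.74 and -0.81), and CDKN2B passed in 6 of 19 alternatives. CDKN2A had 40.8 and 43.5 CPM in DOX and 72.6 and 68.1 CPM in untreated cells (-0.87, SE 0.110), and 67.4 and 64.4 CPM in DOX and 78.2 and 72.9 CPM in untreated cycling cells, and it held -0.98 with 0 UMIs.

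Of 16 genes of the lamina and the HMG family, 13 fell and none rose, with a median of -0.67, and 4 fell with 0 UMIs of MKI67 and TOP2A. LMNB1 (lamin B1) had 7.59 and 8.68 CPM in DOX and 25.6 and 23.2 CPM in untreated non-cycling cells (-1.73, SE 0.161, edgeR adjusted p = 1.8e-04), and 83.6 and 89.3 CPM in DOX and 96.4 and 99.7 CPM in untreated cycling cells. With 0 UMIs of the 2 genes, LMNB1 was at -1.13 and did not pass (edgeR adjusted p = 0.15). HMGB1, an abundant chromatin protein that senescent cells are known to release, had 522 and 504 CPM in DOX and 1461 and 1204 CPM in untreated cells (-1.51, SE 0.123), and held -1.28 under that limit. HMGB2 had 24.5 and 28.4 CPM in DOX and 158 and 118 CPM in untreated cells (-2.53). HMGN2 (-1.47) and TMPO, which encodes lamina-associated polypeptide 2 (-1.46), fell too.

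Of 15 histone genes tested with polyadenylated transcripts, 5 rose and 5 fell, with a median of 0.12. The clustered genes HIST1H2AC and HIST1H2BD rose by 1.43 and 1.49, with 54.9 and 65.6 CPM in DOX and 17.8 and 24.6 CPM in untreated cells for HIST1H2AC. The variants H2AFZ and H2AFX fell by 1.45 and 1.24 on the log2 scale, with 433 and 421 CPM in DOX and 1223 and 911 CPM in untreated cells for H2AFZ. Clustered histone genes share sequence, so reads may be split among them. In cells with 0 UMIs of MKI67 and TOP2A, 1 of the 15 was higher and none lower, with H2AFX at -0.42. Of 25 kinases and repair genes of the DNA damage response, 14 fell and none rose, with a median of -0.48. FANCI and BRCA1 fell by 1.56 and 1.58 on the log2 scale, and CHEK1, the replication checkpoint kinase, fell by 1.39 on that scale. XRCC2, which acts in homologous recombination, had 5.28 and 6.81 CPM in DOX and 20.6 and 17.0 CPM in untreated cells (-1.80). None of the 25 passed with 0 UMIs of MKI67 and TOP2A, and in G1-called cells 4 were lower and XRCC2 was at -0.27.

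Several of the largest rises among genes of at least 20 CPM were outside the interferon lists. KLK5, a secreted serine protease, had 83.5 and 80.6 CPM in DOX and 1.17 and 0.362 CPM in untreated non-cycling cells (6.34, SE 0.251, edgeR adjusted p = 2.7e-06), and 12.9 and 8.52 CPM in DOX cycling cells. LCN2, an iron-siderophore binding protein, had 89.2 and 86.7 CPM in DOX and 2.68 and 4.34 CPM in untreated cells (4.63). KRTAP3-1, a keratin-associated protein, had 111 and 57.3 CPM in DOX and 4.36 and 0 CPM in untreated cells. FXYD3, a regulator of the sodium pump, had 185 and 137 CPM in DOX and 15.6 and 18.5 CPM in untreated cells (3.15). The non-coding RNA LINC01021 rose by 2.90 and ARRDC4, an arrestin-domain protein, by 2.69. KLK5, LCN2 and FXYD3 kept values of 5.26, 3.92 and 2.48 in cells with no UMI of the 2 rule genes. KRTAP3-1, LINC01021 and ARRDC4 each passed in 18 of 19 alternatives.

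Of 18 genes of colon epithelial differentiation tested, 10 rose and 1 fell, against 12.1% and 13.7% of all genes, with a median of 0.52. CDH1 (E-cadherin) had 80.9 and 77.5 CPM in DOX and 26.8 and 29.3 CPM in untreated cells (1.38, SE 0.120), and its effect was larger than in cycling cells by 0.62 (edgeR adjusted p = 0.0078). CLDN4, a tight junction claudin, rose by 0.88 and KRT18, an epithelial keratin, by 0.63. Of 14 Wnt target and stem cell genes, 5 rose and none fell, set beside the same shares, with a median of 0.46. The genes that rose include ZNRF3 (0.75) and RNF43 (0.45), ubiquitin ligases that remove Wnt receptors, EPHB2 (1.07), a receptor of the crypt, and SOX9 (0.73), a crypt transcription factor. Under the limit of 0 UMIs, 2 of 16 differentiation genes were higher, CDH1 (1.06) among them, and no Wnt gene passed.

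Of 25 lysosome and autophagy genes, 11 rose, 1 fell and 13 did not pass, with a median of 0.33 in non-cycling and 0.11 in cycling cells. PSAP, the precursor of saposins, had 257 and 232 CPM in DOX and 90.5 and 107 CPM in untreated cells (1.20). GRN (progranulin) had 158 and 132 CPM in DOX and 52.6 and 55.7 CPM in untreated cells (1.30). CTSL, a cysteine cathepsin, fell by 0.82 on the log2 scale. The DOX effect differed between the classes for 7 of the 25 genes, 6 of them larger and 1 smaller in non-cycling cells, against 3.55% and 4.69% of all genes. Without untreated library 1 fewer lysosomal genes were higher, as over all genes, though not fewer were lower. With 0 UMIs of MKI67 and TOP2A 1 was higher.

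None of 21 genes of cholesterol synthesis rose, 10 fell and 11 did not pass, with a median of -0.44. In cycling cells 13 of the 21 rose and none fell, with a median of 0.30, against 15.8% and 16.8% of all genes in that comparison. The effect was lower in non-cycling cells for 14 of 21 genes and higher for none, with a median difference of -0.78. INSIG1, the sterol-regulated anchor of SREBP, had 10.3 and 15.4 CPM in DOX and 40.9 and 27.1 CPM in untreated non-cycling cells (-1.61, SE 0.228), while cycling cells had 29.2 and 30.4 CPM in DOX and 20.9 and 20.6 CPM in untreated cultures (0.44). The difference was -2.02 (edgeR adjusted p = 1.7e-04). IDI1, an isomerase of the isoprenoid steps, had 43.9 and 39.4 CPM in DOX and 70.6 and 58.3 CPM in untreated non-cycling cells, and 81.2 and 83.9 CPM in DOX and 61.5 and 56.7 CPM in untreated cycling cells. EBP and FDPS, enzymes of the pathway, fell by 1.23 and 0.79 on the log2 scale. With 0 UMIs of MKI67 and TOP2A the median was -0.64, but none of the 21 genes passed. Without untreated library 1 fewer cholesterol genes were lower, as were fewer of all genes.

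Of 17 genes of the integrated stress response, 10 fell, 1 rose and 6 did not pass, with a median of -0.44. PHGDH, the first enzyme of serine synthesis, had 12.2 and 13.2 CPM in DOX and 36.4 and 35.1 CPM in untreated cells (-1.63, SE 0.130), and 31.6 and 34.5 CPM in DOX and 31.7 and 30.7 CPM in untreated cycling cells. PSAT1, the next enzyme, fell by 0.95 on the log2 scale and SLC3A2, a subunit of amino acid transporters, by 1.14. Of the 17, 3 were lower with 0 UMIs of the 2 genes, and PHGDH held -2.0. ATF3, a stress transcription factor, was the member that rose, with 115 and 135 CPM in DOX and 31.7 and 34.0 CPM in untreated cells (1.81, SE 0.124), but it did not pass with 0 UMIs (1.30).

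**Figure D4:**
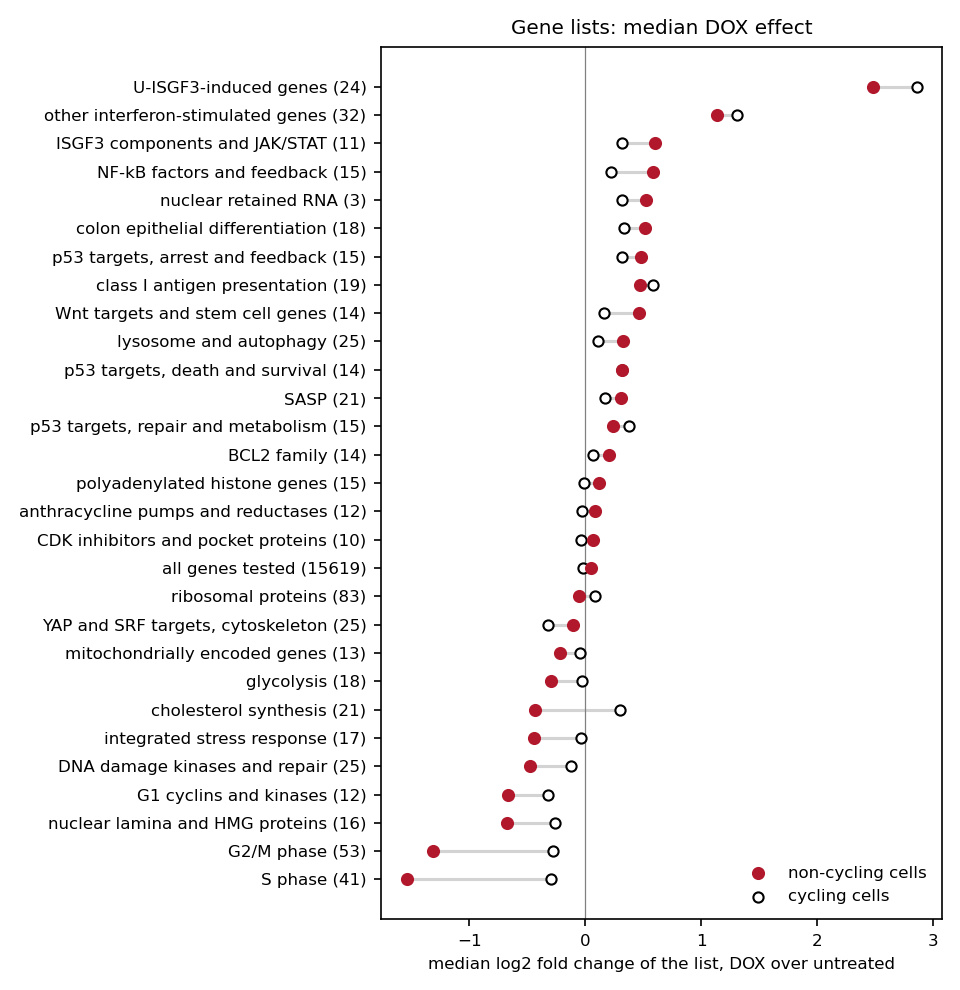
Median log2 fold change (DOX over untreated) of each gene list in non-cycling (filled) and cycling (open) cells, with the number of genes tested in non-cycling cells in parentheses. U-ISGF3-induced genes stand highest in both classes at 2.48 and 2.86, cholesterol synthesis is at -0.44 and 0.30, and the S phase and G2/M lists are lowest at -1.54 and -1.31 in non-cycling cells.

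Where the DOX effect differed between non-cycling and cycling cells, 697 of 19661 genes were higher (3.55%) and 922 lower (4.69%) in non-cycling cells at an edgeR adjusted p under 0.05. Outside the S and G2/M lists the largest differences upward at 20 CPM or more began with CPA4 (chr7:129932974-129964020, GRCh37), a secreted carboxypeptidase. CPA4 had 334 and 281 CPM in DOX and 71.7 and 75.7 CPM in untreated non-cycling cells (1.94, SE 0.126), but 53.9 and 39.7 CPM in DOX and 55.6 and 52.1 CPM in untreated cycling cells (-0.29). The difference was 2.27 (edgeR adjusted p = 1.0e-06), and CPA4 held 2.06 in non-cycling cells with 0 UMIs of MKI67 and TOP2A. GALNT5, a Golgi enzyme that starts O-glycans, had 145 and 113 CPM in DOX and 19.8 and 16.3 CPM in untreated non-cycling cells, a difference of 1.28. CHPF and CHST11, enzymes of chondroitin sulfate synthesis, differed by 1.12 and 1.04. CHPF had 229 and 225 CPM in DOX and 96.9 and 125 CPM in untreated non-cycling cells, against 117 and 111 CPM in DOX and 119 and 122 CPM in untreated cycling cells.

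**Figure D5:**
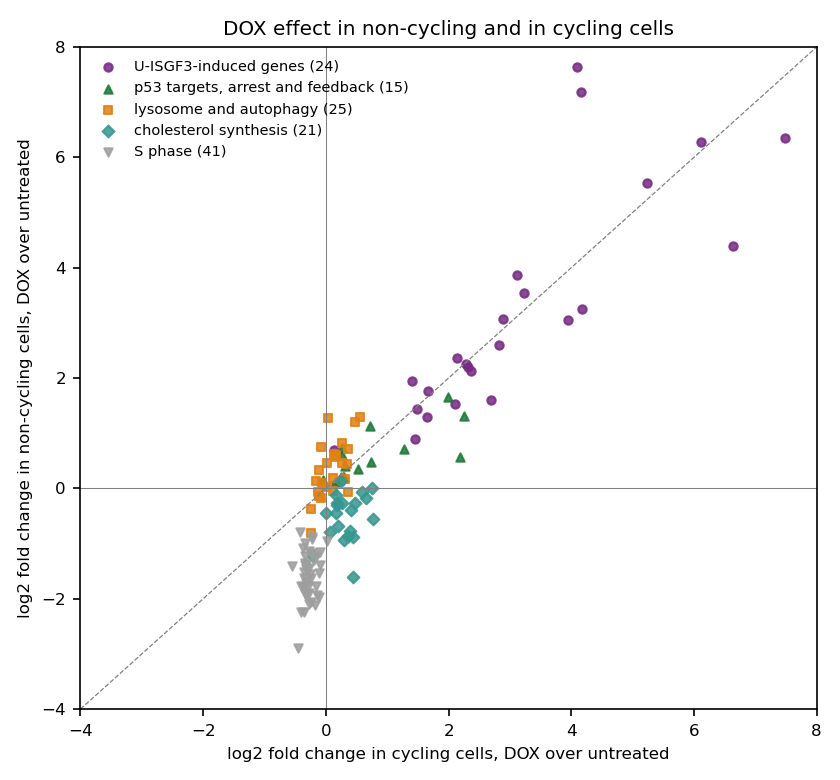
Log2 fold change of single genes (DOX over untreated) in non-cycling (y) and cycling (x) cells for 5 lists, with the dashed line of equal effect. The difference passed the test for 2 U-ISGF3-induced genes, for 5 p53 arrest genes (2 above the line and 3 below) and for 7 lysosome genes (6 above and 1 below), and for 14 cholesterol and 40 S phase genes, all below. The points of genes with almost no untreated UMIs depend on the fit's prior count.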

How the data were processed

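Raw UMI counts were used as deposited by the authors, who made them with Cell Ranger (7.2.0 in the file headers) on hg19 with 8000 barcodes forced per DOX library, without normalization. In the submitters' processing notes the tools are bedtools 2.25, SAMtools 1.2, CASAVA 1.8.2 and, unlike the headers, Cell Ranger 7.0.0. The bulk samples of the series were not analysed here. Members and the 29 gene lists were chosen with earlier results of these data known.

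UMIs of a class were summed per library and tested with edgeR 4.0.16 (TMM, filterByExpr, quasi-likelihood F test, adjusted p under 0.05) on R 4.3.3, with 2 libraries against 2. The difference between classes came from 1 model of the 8 sums with library as a block. Phases were scored with scanpy 1.11.5, and cells were thinned without replacement. Doublets were not called and free RNA was not removed, since empty droplets were not used here. Genes were named by a rule: those the paper names, up to 4 of each list by adjusted p, the 10 largest rises and falls of at least 20 CPM whose libraries did not overlap, and 8 differences each way outside the S and G2/M lists.

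On simulated counts for the non-cycling comparison (15859 genes), 32.8% of 1.5-fold, 86.6% of 2-fold and 98.5% of 4-fold changes were called, with 5.23% false calls. Changes were placed only in genes above a minimum of expected UMIs in the smallest library, and all genes had the same dispersion. The rates therefore do not cover genes of few UMIs. Replicates differed by more than counting (chi-square per degree of freedom 7.12 in DOX and 3.98 in untreated libraries). Alternatives were DESeq2 1.42.0, other scaling factors, no filter, other limits of the class, thinned sums, a replicate block and leaving out each library. Promoter sequences are from RefSeq (GRCh38.p14) and gene positions from GENCODE on GRCh37, the build of the files. Some genes the rule selects are not reported here.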

Additional observations from a re-analysis of the deposited data

Results flagged for a closer look

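Each value here is the difference of the log2 DOX effect between non-cycling and cycling cells from edgeR's model over both classes, picked out because that difference passed the test. Lower in non-cycling cells were SPC25 (-2.63), NCAPG (-2.56), ESCO2 (-2.52), PBK (-2.42), KIF18B (-2.22), MCM10 (-2.14), NCAPH (-2.10) and FOXM1 (-2.03). All 8 are outside the 2 phase lists but are known cell cycle genes, and their levels move with MKI67 and TOP2A, which defined the class. SPC25, for example, had 2.54 and 3.33 CPM in DOX and 18.4 and 18.1 CPM in untreated non-cycling cells.

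Higher in non-cycling cells were CPA4 (2.27), GALNT5 (1.28), CHPF (1.12), ZNF251 (1.06), ATF3 (1.05), CHST11 (1.04) and the non-coding RP1-46F2.2 (1.04). ZNF251 had 49.3 and 49.9 CPM in DOX and 20.4 and 27.1 CPM in untreated non-cycling cells, and 32.1 and 31.6 CPM in DOX and 29.9 and 33.4 CPM in untreated cycling cells. RP1-46F2.2 had 127 and 87.5 CPM in DOX and 30.8 and 19.5 CPM in untreated non-cycling cells.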

How the results depend on the processing

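Main counts were 1893 genes higher and 2147 lower, and for the difference between classes 697 higher and 922 lower. With a limit of 0 UMIs these were 93 and 70, and 68 and 52, while with 6 UMIs they were 2871 and 3316, and 1173 and 2034. G1-called cells of the class gave 923 and 1012, cells of 40000 to under 100000 UMIs 1073 and 1391 (difference 240 and 380), and, chosen after seeing the data, cells of 30000 to under 70000 UMIs 746 and 915. An MT- share up to 20% gave 3037 and 3011 (difference 2823 lower). DESeq2 called 980 higher and 1723 lower (difference 312 higher), and with no scaling factors the split was 2675 and 1434. For the difference, 446 and 2482 were called without the filter, 185 higher with the thinned limit and 410 higher on thinned sums. Leaving out 1 library in turn gave 541 to 1390 higher and 871 to 2213 lower, and for the difference 197 to 602 and 291 to 856, with the lowest counts without untreated library 1. With 0 UMIs the mean share was 17.2% in DOX and 0.86% in untreated cultures, with 6 UMIs 33.2% and 5.74%, in the narrower depth window 21.9% in DOX, under 20% MT- share 37.6% and 3.95%, and with the thinned limit 1.89% in untreated cultures. The cause of these shifts was not tested, beside the fewer cells of narrower limits.

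Of 134 named genes called, 41 kept their call with 0 UMIs and 108 to 134 under each other alternative. Signs turned for GDF15 with 0 UMIs (-0.048), SFN in the window of 30000 to under 70000 UMIs (-0.00055) and CCNE2 in G1-called cells (0.281). Replicate numbers do not pair the samples here (correlation of their deviations 0.072). The replicate block gave 1969 higher and 2191 lower.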

Other observations

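Of 25 YAP and SRF targets and cytoskeletal genes, 4 fell and 2 rose, where 13.7% of all genes were lower and 12.1% higher, so these shares are near or below those of all genes. ACTB, cytoplasmic beta-actin, had 1189 and 1172 CPM in DOX and 2189 and 1945 CPM in untreated non-cycling cells (-0.94), and ACTG1 fell by 0.85 on the log2 scale. MYL12A, a myosin light chain, and AXL, a receptor tyrosine kinase, fell by 0.65 and 0.53 on that scale. ACTB, ACTG1, MYL12A and AXL all passed in G1-called cells, but none of them with 0 UMIs of MKI67 and TOP2A. Of 18 glycolysis genes, 5 fell and 1 rose, against the same 13.7% and 12.1% of all genes. ENO1 (enolase) had 929 and 979 CPM in DOX and 1508 and 1430.2 CPM in untreated cells (-0.75), LDHB fell by 0.77 and TPI1 by 0.47 on the log2 scale, and SLC2A1, the glucose transporter GLUT1, rose by 0.82 to 187 and 185 CPM in DOX, against 81.5 and 115 CPM in untreated cells. SLC2A1 held 0.97 with 0 UMIs of MKI67 and TOP2A, where ENO1, LDHB and TPI1 did not pass. In G1-called cells TPI1 (-0.32) did not pass either.

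The rule that chose the cells limits the MT- share to under 8%. The levels and calls of mitochondrially encoded genes are therefore a description of cells chosen partly on these values. Of the 13 genes, 6 were lower and none higher (median -0.22), where 13.7% and 12.1% of all genes were. MT-ATP8 had 68.6 and 90.9 CPM in DOX and 222 and 220 CPM in untreated cells (-1.60), and MT-ATP6 fell by 1.03, MT-CO3 by 0.72 and MT-ND2 by 0.64 on the log2 scale. MT-ATP8 and MT-ATP6 kept their calls with 0 UMIs of MKI67 and TOP2A, while MT-CO3 and MT-ND2 did not. Cells of low MT- share are more common in the DOX class, and with an MT- share of 2% to under 8% in both conditions 6 of 13 were still lower, with a median of -0.04. With an MT- share up to 20%, 3 fell, 2 rose and the median was 0.14. Of 3 nuclear retained RNAs, NEAT1, the scaffold of paraspeckles, rose by 0.81 and MALAT1 by 0.37 in the summed UMIs. KCNQ1OT1 did not pass at 25.1 and 36.7 CPM in DOX and 16.6 and 24.3 CPM in untreated cells. Summed over the 3 RNAs, DOX non-cycling cells thinned as above had means of 325 and 308 UMIs, against 159 and 191 in untreated ones. The medians lay closer, at 114.5 and 146 UMIs in DOX and 100 and 120 in untreated cells. Lower quartiles were lower in DOX, at 11 and 12 UMIs against 46.75 and 52. Upper quartiles were higher, at 369.5 and 414 UMIs against 259 and 279. The summed rise was thus not shared by all DOX cells. With 0 UMIs of MKI67 and TOP2A, neither NEAT1 (0.50) nor MALAT1 (0.13) passed. In G1-called cells NEAT1 held 0.52, while MALAT1 (0.14) did not pass. Among 83 ribosomal protein genes 4 rose and 9 fell (median -0.06), both smaller shares than over all genes. The members with the smallest adjusted p all fell, RPSA (-0.50), RPL26L1 (-0.59), RPL7L1 (-0.57) and RPS2 (-0.42). None of these passed with 0 UMIs of MKI67 and TOP2A, and all passed in G1-called cells. Summed over the list, the level was higher in DOX, at 230590 and 227420 CPM against 218030 and 215330 CPM in untreated non-cycling cells. With an MT- share up to 20%, none of 84 ribosomal protein genes rose and 36 fell.

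Of 12 anthracycline pumps and reductases tested, none rose and 1 fell, both smaller shares than the 12.1% and 13.7% of all genes. NQO1, a quinone reductase, had 209 and 202 CPM in DOX and 326 and 351 CPM in untreated cells (-0.84), and held -0.96 with 0 UMIs of MKI67 and TOP2A. The pump gene ABCB1 had 52 and 43 UMIs in DOX and 7 and 0 in untreated non-cycling cells and did not pass. AKR7A2 had 92.3 and 85.3 CPM in DOX and 105 and 92.7 CPM in untreated cells without passing, and CYP1B1 2.15 and 6.46 CPM in DOX and 1.17 and 4.34 CPM in untreated cells.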
